A study of Mus musculus with 6 samples.

Results

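The Cyp3a genes were described in hepatocytes sorted by DNA content. Their probe sets were chosen by the platform annotation: every probe set that names Cyp3a genes and no other gene was taken. This gave 6 of 22626 probe sets that are not controls. Of these, 5 name a single gene, namely Cyp3a11, Cyp3a13, Cyp3a16, Cyp3a25 and Cyp3a44, and 1 names the twin genes Cyp3a41a and Cyp3a41b together, so 7 genes are covered. The family was picked on the measured difference between the fractions, which was already known for Cyp3a16, so those differences are given here as a description without a test.

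The arrays hold hepatocytes of C57BL/6 wild type mice aged 3 weeks, stained with a Hoechst dye that binds DNA and sorted by flow cytometry. There were 3 arrays of tetraploid hepatocytes, which carry a duplicated chromosome set in 1 nucleus or spread over several, and 3 arrays of diploid hepatocytes. Because the gate reads DNA content, diploid cells that have copied their DNA before dividing could fall into the tetraploid gate. The labels call the replicates biological without naming animals, and they give no sex. The arrays were alike in overall signal, with median intensities of 85.9 to 88.7 and correlations of 0.992 to 0.997 between arrays.

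Cyp3a enzymes are cytochromes P450 of the endoplasmic reticulum that oxidise drugs, steroids and bile acids. In mouse liver the paralogs are used at different ages and in different sexes. Cyp3a16 is known as the form of the fetal and newborn liver, which fades as the animal matures. Cyp3a41a, Cyp3a41b and Cyp3a44 are known as forms that become predominant in females, while Cyp3a11, Cyp3a25 and Cyp3a13 increase after birth and persist in adults of both sexes. Transcription of several members is raised by the xenobiotic receptor PXR, encoded by Nr1i2.

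RefSeq (assembly GRCm38.p6) lists 9 protein-coding Cyp3a genes and 4 pseudogenes on chromosome 5. Of the measured genes, Cyp3a16, Cyp3a41b, Cyp3a41a, Cyp3a44, Cyp3a11 and Cyp3a25 follow each other in this order, with no other protein-coding Cyp3a gene between them, and Cyp3a13 lies apart on the far side of Cyp3a57. All 7 measured genes matched an entry in the RefSeq promoter table. Cyp3a57 and Cyp3a59 have no probe set of their own in the annotation, so only their promoters were compared.

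The promoter windows of 5 genes are shown because they divide the paralogs into a group with nearly the same promoter, the less alike Cyp3a11, and the unlike Cyp3a25. Each window runs from 250 bases before to 50 bases after the annotated start of transcription, 5′ to 3′ on the strand of the gene, which is the minus strand in each case. Capitals mark the longest run of letters that Cyp3a16, Cyp3a41a, Cyp3a41b, Cyp3a44 and Cyp3a11 have in common. The positions on GRCm38.p6 are chr5:145469674-145469973 for Cyp3a16, chr5:145720087-145720386 for Cyp3a41a, chr5:145805825-145806124 for Cyp3a44, chr5:145879805-145880104 for Cyp3a11 and chr5:146009569-146009868 for Cyp3a25.
Cyp3a16: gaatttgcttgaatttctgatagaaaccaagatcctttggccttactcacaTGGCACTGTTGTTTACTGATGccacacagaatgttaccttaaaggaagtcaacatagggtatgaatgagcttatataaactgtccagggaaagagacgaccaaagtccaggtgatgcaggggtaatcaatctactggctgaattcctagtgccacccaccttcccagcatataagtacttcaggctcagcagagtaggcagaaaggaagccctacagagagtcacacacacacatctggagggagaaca
Cyp3a41a: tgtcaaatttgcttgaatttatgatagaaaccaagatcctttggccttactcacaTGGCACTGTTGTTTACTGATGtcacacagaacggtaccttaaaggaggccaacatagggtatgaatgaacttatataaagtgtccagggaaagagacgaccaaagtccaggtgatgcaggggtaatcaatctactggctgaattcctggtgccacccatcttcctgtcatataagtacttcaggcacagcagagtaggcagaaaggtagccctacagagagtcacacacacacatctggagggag
Cyp3a44: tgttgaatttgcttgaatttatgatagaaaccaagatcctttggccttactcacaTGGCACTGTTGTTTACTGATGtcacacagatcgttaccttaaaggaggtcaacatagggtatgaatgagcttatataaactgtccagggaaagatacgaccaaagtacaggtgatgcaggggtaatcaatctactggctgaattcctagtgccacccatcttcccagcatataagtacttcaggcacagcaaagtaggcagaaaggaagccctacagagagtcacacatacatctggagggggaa
Cyp3a11: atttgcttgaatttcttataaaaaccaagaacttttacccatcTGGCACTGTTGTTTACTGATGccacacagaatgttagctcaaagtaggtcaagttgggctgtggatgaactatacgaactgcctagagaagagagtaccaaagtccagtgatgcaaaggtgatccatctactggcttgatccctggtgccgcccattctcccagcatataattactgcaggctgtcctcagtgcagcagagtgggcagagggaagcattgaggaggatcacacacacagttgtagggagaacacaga
Cyp3a25: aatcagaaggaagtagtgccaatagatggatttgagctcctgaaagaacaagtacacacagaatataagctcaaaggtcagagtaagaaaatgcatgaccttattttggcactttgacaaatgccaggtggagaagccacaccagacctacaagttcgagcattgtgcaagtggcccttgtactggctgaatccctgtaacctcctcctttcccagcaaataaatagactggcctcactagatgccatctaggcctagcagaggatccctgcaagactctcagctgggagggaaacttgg

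The Cyp3a16 window was 94.6% identical to that of Cyp3a41a, 93.6% to that of Cyp3a41b and 95.3% to that of Cyp3a44 in pairwise alignments. Against Cyp3a11 it was 76.3% identical. It was 52.5% identical to that of Cyp3a25 and 53.8% to that of Cyp3a13, within the 51.1% to 56.2% found for all pairs that set Cyp3a13 against any other gene, or a gene with the capitalised run against Cyp3a25, Cyp3a57 or Cyp3a59. Cyp3a25 instead resembled Cyp3a59, at 96.3%, and Cyp3a57, at 90.3%. The capitalised run is 21 bases long and was found in 5 of 27025 promoters of the table, searched on both strands. A longer run of 55 bases, which contains it, was shared by Cyp3a16, Cyp3a41a, Cyp3a41b and Cyp3a44.

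Of the 8 short motifs searched on both strands, the forkhead core TGTTTAC, which FOXA proteins recognise, lies inside the capitalised run. It was present in 5 of the 7 measured genes, the same 5 that share the run, and in 3.55% of all promoters. Because the windows of these 5 are alike, they are not independent counts, for this motif or the others. The letters CAAAGT, part of the site of the hepatocyte factor HNF4, were present in 6 of the 7 genes and in 14.3% of promoters. Of the nuclear receptor cores, AGTTCA was present in 3 of the 7 genes and in 14.0% of promoters, and AGGTCA in 3 genes and in 4335 of 27025 promoters. The letters AGTTCA, which also occur in PXR sites, were in the windows of Cyp3a41a, Cyp3a41b and Cyp3a11 and not in that of Cyp3a16. TATAAA was present in 5 genes and in 14.2% of promoters, at 122 to 126 bases before the start in Cyp3a16, Cyp3a41a, Cyp3a41b and Cyp3a44 and at 234 bases in Cyp3a11. TTGCNNAA, a C/EBP core, was present in Cyp3a25 alone of the 7 genes and in 10.8% of promoters. The STAT motif TTCNNNGAA (8.47% of promoters) and the HNF1 core GTTAAT (7.20%) were in none of the 7. No motif matches in these windows overlapped each other. A match of so few letters is no evidence of binding, and a missing match concerns these windows only.

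**Figure D1:**
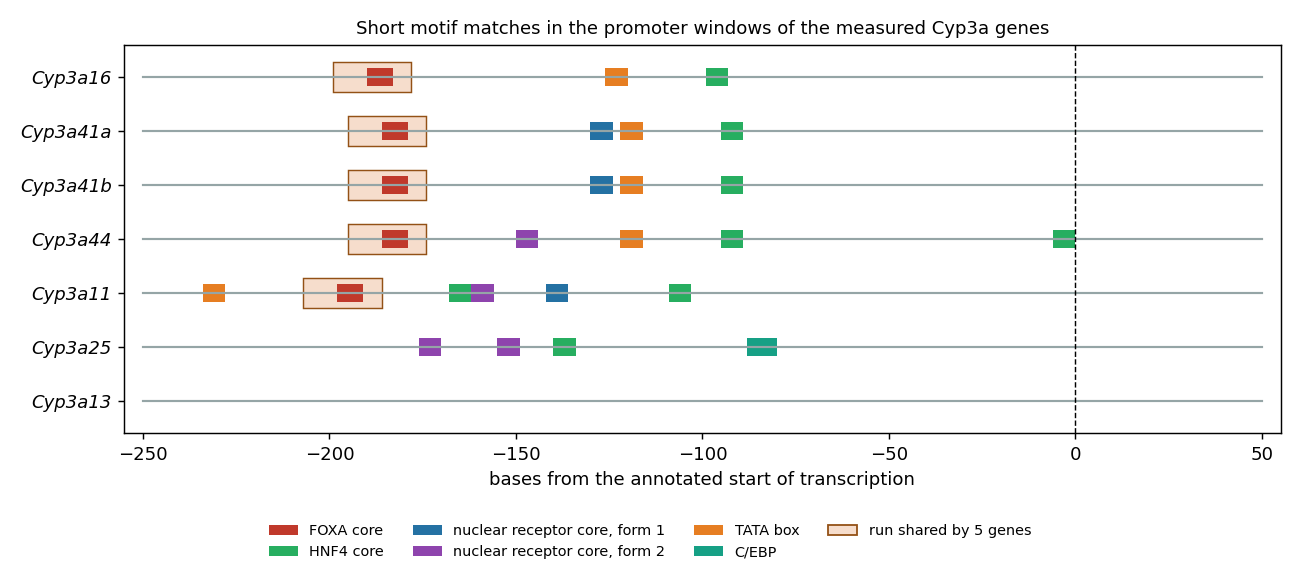
Matches to short motifs in the promoter windows of the 7 measured Cyp3a genes, by distance in bases from the annotated start of transcription (dashed line). Coloured boxes are motif matches (nuclear receptor core form 1 is AGTTCA, form 2 is AGGTCA) and the pale box is the 21-base run shared by 5 genes. The upper 4 genes share FOXA, HNF4 and TATA matches at nearly the same places but differ in their nuclear receptor cores. In Cyp3a11 the TATA match lies before the shared run and not after it, and Cyp3a25 and Cyp3a13 lack the run.

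Cyp3a16 was the member that differed most between the fractions. Its deposited intensity, a linear value after RMA that has no absolute unit, was 788, 573 and 528 in tetraploid replicates 1 to 3, against 215, 267 and 290 in diploid replicates 1 to 3. The fractions did not overlap, and the dimmest tetraploid array was 1.82-fold brighter than the brightest diploid array. On the log2 scale the mean was 9.28 ± 0.31 in tetraploid cells and 7.997 ± 0.22 in diploid cells (SD, n = 3 each). The log2 difference of 1.28 ± 0.17 (SE) corresponds to a 2.43-fold higher level and was the largest upward difference among the 22626 probe sets. Each SE of a difference is that of limma, which draws the variance of a probe set toward a value common to all. It therefore differs from an SE worked out from the SDs given beside it. In bulk RNA, more cells with the transcript and more transcript per cell cannot be told apart.

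The probe set of the twin genes Cyp3a41a and Cyp3a41b, which code for steroid-oxidising P450 enzymes, had intensities of 1172, 1298 and 1440 in tetraploid replicates and 656, 978 and 966 in diploid replicates. All tetraploid arrays again lay above all diploid arrays, with a gap of 0.26 on the log2 scale between the nearest values. The log2 mean was 10.34 ± 0.15 in tetraploid and 9.74 ± 0.33 in diploid cells (SD, n = 3 each), a difference of 0.61 ± 0.16 (SE) or 1.52-fold. Diploid replicate 1 was well below the other diploid arrays, and without it the difference was 0.42. Only 12 probe sets in the table, this one included, had an upward difference at least as large.

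Cyp3a44, the next gene along the chromosome, had intensities of 628, 678 and 689 in tetraploid and 490, 593 and 542 in diploid replicates. The fractions were separated by a narrow gap, with the nearest values 1.06-fold apart. The log2 mean was 9.38 ± 0.07 in tetraploid and 9.08 ± 0.14 in diploid cells (SD, n = 3 each). The difference of 0.30 ± 0.09 (SE), or 1.23-fold, was among 506 upward differences at least as large, its own included.

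Cyp3a11, the main drug-oxidising Cyp3a of adult mouse liver, showed little difference. Its intensities were 33623, 31975 and 33732 in tetraploid and 28632, 32800 and 32412 in diploid replicates, so the fractions overlapped. The log2 difference was 0.08 ± 0.08 (SE), and 0.02 without diploid replicate 1, the single array that was clearly lower. Cyp3a11 ranked between 14 and 32 from the brightest of 22626 probe sets on the 6 arrays, and at that end of a scale that RMA makes equal across arrays a difference can be compressed.

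Cyp3a25, which like Cyp3a11 belongs to the mature liver, had intensities of 16745, 16567 and 16728 in tetraploid and 16216, 16121 and 16036 in diploid replicates. The values within a fraction were close, with a log2 SD of 0.009 in tetraploid and 0.008 in diploid cells. The fractions therefore separated although the difference was only 0.05, or 1.03-fold. Its limma SE of 0.07 reflects the variance common to all probe sets more than these small SDs. This probe set ranked between 119 and 134 from the brightest, so the same limit holds. Cyp3a13, a paralog also known from the intestine, had intensities of 3407, 3569 and 3548 in tetraploid and 2963, 3469 and 3540 in diploid replicates, which overlapped. Its log2 difference was 0.08 ± 0.09 (SE), 0.001 without diploid replicate 1 and 0.13 without diploid replicate 3.

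**Figure D2:**
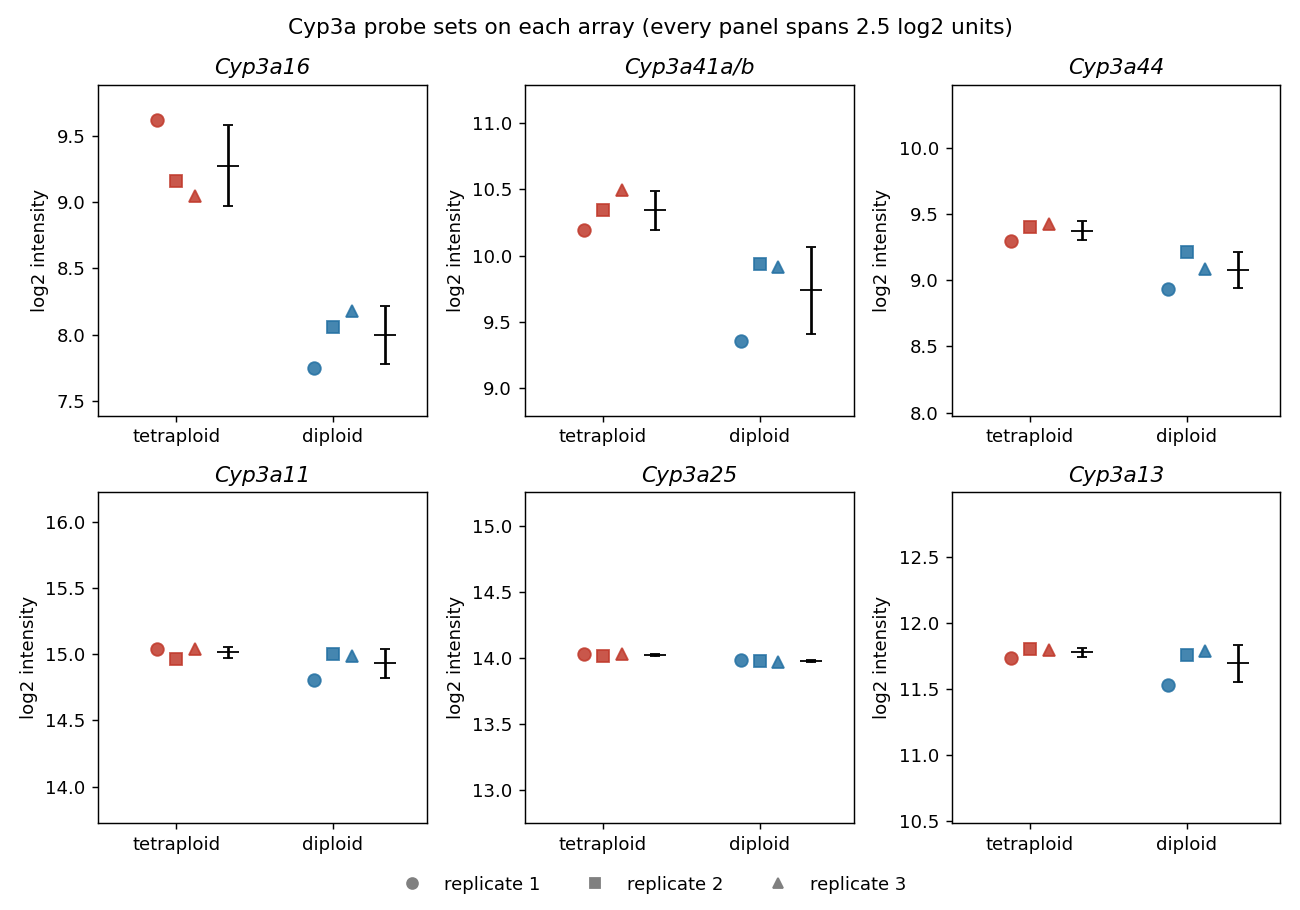
Log2 intensity of each Cyp3a probe set on the 3 tetraploid (red, left) and 3 diploid (blue, right) arrays, with the mean and SD of each fraction in black. Every panel spans the same log2 range, so distances can be compared between panels but heights cannot. Cyp3a16 is the panel with the widest gap, Cyp3a41a/b and Cyp3a44 follow, and the lower panels are nearly flat.

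Across the family, all 6 probe sets had a higher mean in tetraploid cells, where 48.1% of all probe sets did. In 4 of the 6, all tetraploid values lay above all diploid values, as in 5.95% of all probe sets. These shares are given for orientation only, since the family was picked on this same difference. By limma with Benjamini-Hochberg adjustment over the whole table, 0% of probe sets (0 of 22626) passed an adjusted p of 0.05, so no Cyp3a probe set did. At an unadjusted p under 0.05 there were 1561 probe sets, 758 higher and 803 lower in tetraploid cells, and limma with a mean-dependent variance prior also called 0.

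Set beside their promoters, the differences fell into coarse groups, which are described without a test because the family was picked on them. Cyp3a16, Cyp3a41a, Cyp3a41b and Cyp3a44, which are neighbours with windows at least 93.0% identical, had differences of 1.28, 0.61 (1 probe set for the twin genes) and 0.30. Cyp3a11, Cyp3a25 and Cyp3a13 had differences of 0.08, 0.05 and 0.08. Within these groups, Cyp3a44, 95.3% identical to the Cyp3a16 window, differed less than Cyp3a41a/b, at 94.6% and 93.6%. These likenesses lie a few bases apart, so their order carries little weight. Cyp3a11 differed as little as Cyp3a13, whose window is less like that of Cyp3a16. By known age and sex of use, the newborn form differed most, the forms that become female-predominant came next, and the forms of mature liver differed least. Promoter likeness and known use both set Cyp3a16, Cyp3a41a/b and Cyp3a44 apart from Cyp3a25 and Cyp3a13. Otherwise they group differently: known use parts Cyp3a16 from Cyp3a41a/b and Cyp3a44, and joins Cyp3a11 with Cyp3a25 and Cyp3a13, whose windows are unlike its own. With so few probe sets their parts in the differences cannot be told apart, and neither was tested. Neighbouring paralogs with similar transcripts can bind each other's probes. The part of this in the Cyp3a differences, that of Cyp3a16 included, was not tested.

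The paralogs shifted by unequal amounts. The log2 ratio of Cyp3a16 to Cyp3a44 on the same array, of which only the shift can be read, was 0.33, -0.24 and -0.38 in tetraploid replicates and -1.19, -1.15 and -0.90 in diploid replicates. That of Cyp3a41a/b to Cyp3a16 was 0.57, 1.18 and 1.45 in tetraploid and 1.61, 1.88 and 1.74 in diploid replicates.

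Within a fraction the arrays were also ordered differently for different members. Among the tetraploid arrays, replicate 1 had the highest Cyp3a16 value, 0.35 above its fraction mean on the log2 scale, and the lowest values of Cyp3a41a/b, Cyp3a44 and Cyp3a13, at -0.15, -0.08 and -0.04. Among the diploid arrays, replicate 1 had the lowest value of 5 members, from -0.12 for Cyp3a11 to -0.38 for Cyp3a41a/b relative to the fraction mean. Cyp3a25 was the exception, with its highest diploid value on that array.

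**Figure D3:**
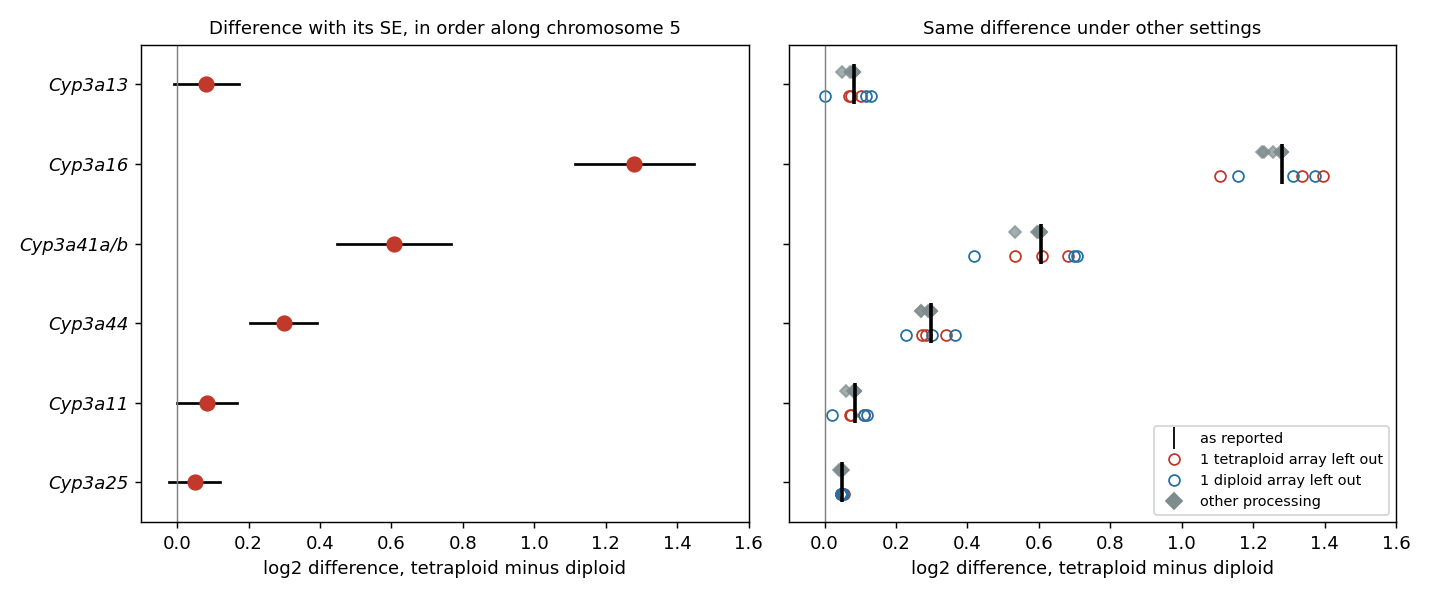
Left, log2 difference (tetraploid minus diploid) of each Cyp3a probe set, with its limma SE as a line. Genes run from top to bottom in their order on chromosome 5. Right, the same differences as reported (black bar), with 1 array left out (circles) and under other processing (diamonds). Cyp3a16 stays between 1.11 and 1.40 and Cyp3a41a/b between 0.42 and 0.71, and the smallest differences lie close to 0.

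The receptors and hepatocyte factors known to control Cyp3a genes had a median difference near that of all genes. Of 26 listed regulators 25 were measured, each by its brightest probe set, and 16 had a higher and 9 a lower mean in tetraploid cells, with a median log2 difference of 0.02 against -0.02 over all 12393 genes. By limma, 0 of them passed the adjusted threshold. Values did not overlap, with tetraploid above, for 1 regulator, where 4.37% of all genes had this pattern, and none had the reverse, seen in 7.43% of all genes. Nr1i2, which encodes PXR, had log2 intensities of 8.25, 8.56 and 8.34 in tetraploid and 8.05, 8.15 and 8.48 in diploid replicates, which overlapped, with a difference of 0.16 ± 0.13 (SE). Nr1i3, which encodes the related receptor CAR, differed by 0.07 ± 0.15, and Hnf4a by -0.02 ± 0.11, although its other probe sets differed by 0.16 to 0.45. The smallest p-values on the list belonged to the nuclear receptor genes Nr5a2, at 0.16 ± 0.07, and Ppara, at 0.33 ± 0.19 (limma adjusted p = 0.731 and 0.800). Nr5a2 was the regulator whose fractions did not overlap, but its other probe sets gave -0.14 to 0.09. Dimmer probe sets also departed from the brightest for Nr3c1, the glucocorticoid receptor gene, whose brightest gave 0.03 ± 0.12 and whose others gave 0.06 and 0.85, and for Nr2f2, a nuclear receptor gene, with 0.19 ± 0.13 against 0.33 and 0.38.

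Enzymes that serve every P450 showed no common direction. Of 13 measured genes of electron transfer and heme synthesis, 6 had a higher and 7 a lower mean, the median was -0.02 and 0 passed. Por, which encodes the reductase that feeds electrons to P450 enzymes, had no probe set with its symbol alone. The heme synthesis gene Cpox differed by 0.28 ± 0.12 and Pgrmc2, which encodes a heme-binding membrane protein, by -0.12 ± 0.10 (limma adjusted p = 0.727 and 0.875).

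Other target genes of PXR and CAR were divided. Of 19 measured, 12 had a higher and 7 a lower mean in tetraploid cells, the median was 0.04 and 0 passed. Tetraploid values lay wholly above diploid values for 4, as for 4.37% of all genes, and wholly below for 3, as for 7.43%. Cyp2b10, the usual reporter gene of CAR activity, had log2 intensities of 8.34, 8.76 and 8.54 in tetraploid and 8.87, 8.89 and 9.33 in diploid replicates. Its difference of -0.48 ± 0.15 (SE) was opposite in sign to that of Cyp3a16, and its other probe sets gave -0.51 and -0.37 (limma adjusted p = 0.643). Abcc3, an export pump gene, differed by -0.26 ± 0.09, and Cyp2c29, a P450 gene, by 0.26 ± 0.11 (limma adjusted p = 0.689 and 0.719).

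Other genes of the fetal and newborn liver were evenly divided in direction. Of 16 measured genes, 8 had a higher and 8 a lower mean, with a median of 0.02 and 0 past the threshold. Among the 16, 4 were in the dimmest 25% of probe sets, and without them the median was 0.06. Igf2, the fetal growth factor, had log2 intensities of 5.97, 5.81 and 6.00 in tetraploid and 6.16, 6.32 and 6.40 in diploid replicates. Its difference was -0.37 ± 0.09 (limma adjusted p = 0.504), and a second probe set gave -0.18. Afp, the fetal serum protein, had values of 7.56, 7.44 and 7.53 in tetraploid and 6.94, 7.37 and 7.32 in diploid replicates, a difference of 0.29 ± 0.12 (limma adjusted p = 0.715), while its other probe sets ranged from -0.08 to 0.20. Tff3, a secreted trefoil peptide, differed by -0.54 ± 0.21 with overlapping fractions.

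Of 18 measured genes that increase in the liver after weaning, 14 had a higher and 4 a lower mean in tetraploid cells, the median was 0.09 and 0 passed. Without tetraploid replicate 3 the median was 0.03. This list shares genes with the PXR and CAR target, male-predominant, pericentral and periportal lists, so the lists are not independent. Cyp7b1, a sterol hydroxylase, had log2 intensities of 8.42, 8.32 and 8.51 in tetraploid and 7.66, 8.14 and 8.07 in diploid replicates, a difference of 0.46 ± 0.13 that a second probe set also gave (limma adjusted p = 0.583). Cyp2f2, also on the periportal list below, had values of 13.73, 13.71 and 13.88 in tetraploid and 14.07, 14.19 and 14.01 in diploid replicates. Its difference was -0.32 ± 0.09.

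Since several Cyp3a paralogs differ between the sexes in adults, markers of sex were read on each array. Eif2s3y, on the Y chromosome, had log2 intensities of 10.23, 9.98 and 10.12 in tetraploid and 10.10, 10.21 and 10.01 in diploid replicates, and Xist, the silencing RNA of the inactive X, had 6.31, 6.47 and 6.39 in tetraploid and 6.35, 6.42 and 6.27 in diploid replicates. Their differences were 0.006 ± 0.096 and 0.05 ± 0.08 (SE). Kdm5d and Uty, also on the Y chromosome, differed by 0.04 ± 0.13 and 0.27 ± 0.14 with overlapping fractions, and Uty was lowest on diploid replicate 1. A second Uty probe set differed by 0.40. Ddx3y had no probe set with its symbol alone. Eif2s3y and Kdm5d lay well above 4.82, the log2 limit of the dimmest 25% of probe sets, on every array. Y-linked signal was thus present on each. Xist also lay above this limit, and whether cells of females were present too was not tested.

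Of 13 measured female-predominant liver genes outside the Cyp3a family, 7 had a higher and 6 a lower mean in tetraploid cells, with a median of 0.006. Cyp2b9, a P450 gene of female liver, had log2 intensities of 12.31, 12.11 and 12.07 in tetraploid and 12.31, 12.12 and 12.05 in diploid replicates, a difference of 0.006 ± 0.103 (SE). Cyp17a1, a steroid hydroxylase gene, and Slc22a27, an anion transporter gene, differed by -0.19 ± 0.11 and 0.19 ± 0.11. Of 11 measured male-predominant genes, 8 had a higher and 3 a lower mean, with a median of 0.16, which was -0.004 without tetraploid replicate 3. Hsd3b5 and Hsd3b2, steroid dehydrogenase genes, differed by 0.21 ± 0.33 and 0.33 ± 0.19. In both lists 0 genes passed.

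Markers of position along the liver lobule were mostly higher for the pericentral and mostly lower for the periportal zone in tetraploid cells. Of 18 measured pericentral genes, 16 had a higher and 2 a lower mean in tetraploid cells, with a median log2 difference of 0.23, and of 13 measured periportal genes 2 had a higher and 11 a lower mean, with a median of -0.30. Fractions did not overlap for 7 pericentral genes, with tetraploid above, and for 8 periportal genes, with tetraploid below, where 4.37% of all genes lay wholly above and 7.43% wholly below. By limma 0 passed in either list. The summed intensity of the pericentral genes ran from 83680 to 87149 on tetraploid and from 77009 to 78376 on diploid arrays. That of the periportal genes ran from 111743 to 122800 on tetraploid and from 123586 to 135619 on diploid arrays. Such sums of linear intensities, here and below, are weighted toward the brightest genes of a list. Oat and Gulo, pericentral enzymes, differed by 0.26 ± 0.08 and 0.29 ± 0.09, and Hsd17b6 and Aldh1b1, periportal enzymes, by -0.48 ± 0.09 and -0.46 ± 0.11, while a second probe set of Hsd17b6 gave 0.20. Of the periportal enzymes of the urea cycle, Arg1 differed by -0.02 and Cps1 by -0.03. Glul, the defining gene of the innermost pericentral cells, differed by -0.11 ± 0.11. The part of lobular position in the Cyp3a differences was not tested.

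**Figure D4:**
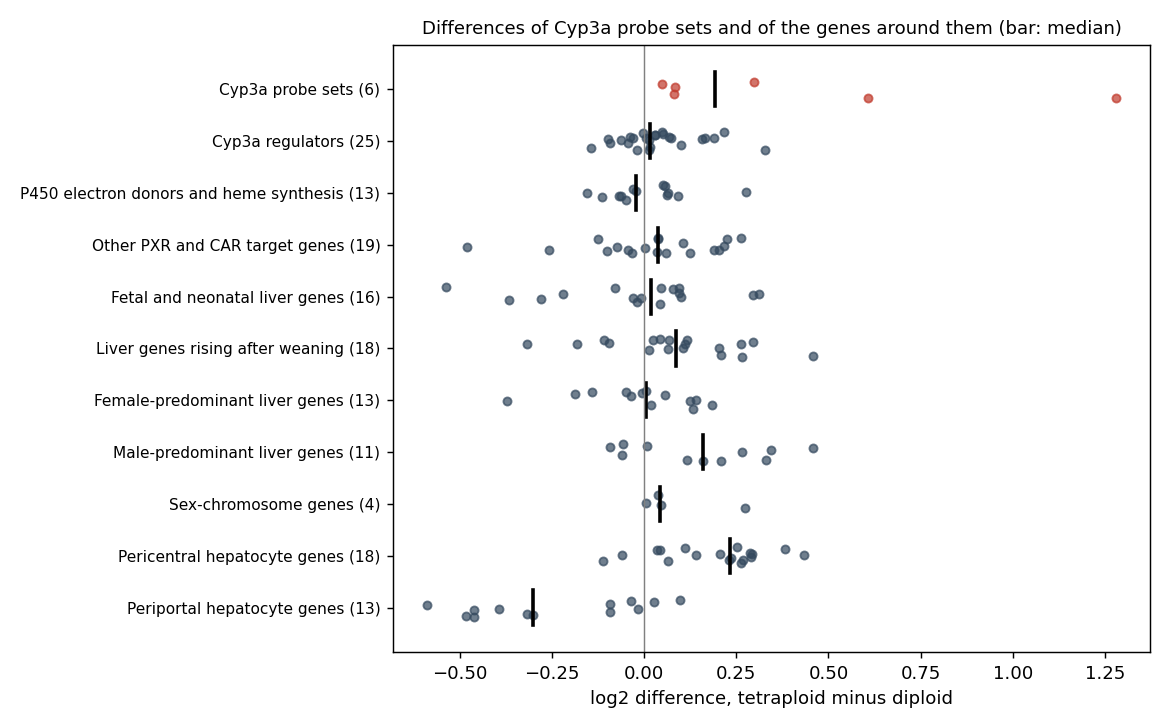
Log2 difference (tetraploid minus diploid) of the 6 Cyp3a probe sets (red) and of each measured gene on 10 lists (dark), with the number measured in brackets and a bar at the median. Cyp3a16, at 1.28, lies to the right of every listed gene, and the medians of the regulators and of the fetal and newborn genes lie near 0.

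The label of the cells was checked on 7 measured hepatocyte markers, 3 of which had a higher and 4 a lower mean in tetraploid cells, with a median of -0.02. Alb was among the brightest probe sets, with a log2 intensity of 15.57 on each tetraploid array and of 15.54, 15.57 and 15.58 on diploid replicates 1 to 3. At the top of a scale that RMA makes equal across arrays, these values cannot show a difference between the fractions. Of 12 endothelial markers 9 had a higher and 3 a lower mean, with a median of 0.17, and their summed intensity ran from 1206 to 1425 on tetraploid and from 1076 to 1227 on diploid arrays. Tetraploid values lay wholly above diploid values for 3 of the 12, as for 4.37% of all genes. These were the water channel gene Aqp1 at 0.47 ± 0.11, the mannose receptor gene Mrc1 at 0.35 ± 0.13 and the Fc receptor gene Fcgr2b at 0.34 ± 0.13 (limma adjusted p = 0.382, 0.696 and 0.706), and other probe sets of Fcgr2b gave 0.02 to 0.27. Clec4g, a lectin of sinusoidal endothelium, differed by 0.34 ± 0.14 with overlapping fractions and -0.05 in its second probe set. The 3 endothelial markers with a lower mean were Stab2 at -0.24 ± 0.20, Stab1 at -0.06 ± 0.14 and the dim Pecam1 at -0.01 ± 0.08. The part of endothelial RNA in the Cyp3a differences was not tested. Medians were -0.08 for Kupffer cell, -0.009 for stellate cell, -0.10 for cholangiocyte, 0.09 for erythroid, -0.06 for lymphocyte and -0.06 for neutrophil markers, of which 10, 10, 6, 6, 7 and 5 were measured. On these 8 marker lists 0 genes passed.

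The genes whose values followed Cyp3a16 most closely over the 6 arrays were looked up among 9880 genes outside the dimmest 25% of probe sets. The 5 with the highest Pearson r were Supt20 at 0.991, Zfand1 at 0.989, Atg10 at 0.983, Sp1 at 0.983 and Agbl3 at 0.976. They encode a subunit of a transcription coactivator complex, a zinc finger protein, an autophagy enzyme, a transcription factor and a tubulin-trimming peptidase. Their own differences were far smaller than that of Cyp3a16, from 0.17 ± 0.08 for Atg10 to 0.35 ± 0.10 for Sp1. In all 5 the tetraploid values lay above the diploid values, as in 4.37% of all genes. Picking genes by their r with Cyp3a16 favours this pattern. The 6 arrays fall into the 2 fractions, so this r includes the step between them and is given as a description. For Cyp3a11 the 5 closest genes were Ap5m1, Birc6, Hdac2, Tstd2 and Becn1, with r from 0.979 to 0.984 and overlapping fractions in each.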

How the data were processed

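Total RNA of sorted hepatocytes was extracted with Trizol, labelled with biotin and hybridised to 6 Affymetrix arrays, 3 for each fraction, per the labels' protocols. The authors deposited 1 linear intensity for each probe set and array. The submitters' processing notes name RMA, which corrects background, equalises the arrays and summarises the probes; its version is not given in the sources used here. Each difference is therefore relative to the other transcripts on the array, and a change in total RNA per cell cannot be seen. The number of arrays limits the precision: the median limma SE of a log2 difference was 0.099. The labels name no animals, so part of the replicate spread behind the p-values could be technical.

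The table holds 22690 probe sets, 64 of them controls that were not tested. The annotation gave 1 symbol to 20380, several to 691 and none to 1555. Entrez identifiers matched the RefSeq gene table (GRCm38.p6) for 20351 and changed 0 symbols. Log2 intensities of all 22626 probe sets were fitted with limma 3.58.1 in R 4.3.3 (lmFit, eBayes, two-sided), with ploidy as the factor, no replicate block and no filter on dim values. All 6 Cyp3a probe sets lay above the dimmest 25%, whose upper limit is a log2 intensity of 4.82. P-values were adjusted by Benjamini-Hochberg over the whole table. For listed genes the brightest probe set with that symbol alone was used. The fit was tested on simulated data.

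The members, lists and tests were chosen with earlier results of these data known. The genes named are the Cyp3a members, the 2 genes with the smallest p on each of the 10 gene lists that are not cell type markers, a set of fixed examples and the 5 closest in pattern. Beyond these, Kdm5d, Arg1, Cps1, Nr3c1, Nr2f2, Aqp1, Mrc1, Fcgr2b, Stab1, Stab2 and Pecam1 were named after their values were seen. Promoters (RefSeq, GRCm38.p6) were aligned with Biopython 1.88, with end gaps free.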

Additional observations from a re-analysis of the deposited data

How the results depend on the processing

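All 6 Cyp3a probe sets had a higher mean in tetraploid cells under each of the 14 alternatives run, except that with 1 probe set per gene the 5 single-gene probe sets alone have a value. The log2 difference ran from 1.11 (without tetraploid replicate 1) to 1.40 (without tetraploid replicate 3) for Cyp3a16, from 0.42 to 0.71 for Cyp3a41a/b, from 0.23 to 0.37 for Cyp3a44, from 0.02 to 0.12 for Cyp3a11, from 0.001 to 0.13 for Cyp3a13 and from 0.04 to 0.05 for Cyp3a25. For the first 4 after Cyp3a16 the lowest value came without diploid replicate 1, and none of the 6 passed the limma adjusted threshold under any alternative. The number of probe sets past it was 0 with the dimmest 25% left out, 1 probe set per gene, a pseudocount of 16, quantile normalization, median centring, a robust mean-dependent prior or array weights, ran from 0 to 1 when 1 array was left out (1 without tetraploid replicate 1), and was 10 with the replicate number as a block. The cause was not tested. The numbers were not taken to pair the arrays: the correlation of deviations between same-numbered arrays was 0.44, -0.15 and -0.16 for replicates 1, 2 and 3, while tetraploid replicate 2 correlated best with diploid replicate 3 (0.56) and tetraploid replicate 3 with diploid replicate 2 (0.24). The labels do not say whether the fractions share animals. Dim genes are limited by the array background, and the brightest by the common scale.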
